A study of Homo sapiens with 16 samples.

Results

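The subject is how cohesin and acetylated chromatin met in TC-32 cells: the deposited list of SMC1 binding peaks of this line was set against its list of H3K27ac domains, each interval taken once, on chromosomes 1 to 22 and X. These lists hold 32720 SMC1 peaks and 36355 H3K27ac domains, together 69075 of the 114213 intervals in the 6 lists of the series, with no interval chosen by its height. Ewing sarcoma is a tumour of bone and soft tissue, and both lines studied, TC-32 (phase of therapy in the labels: diagnosis) and TC-71 (post-chemotherapy), are established lines of it, grown in RPMI-1640 with serum. Chromatin crosslinked with formaldehyde was immunoprecipitated for SMC1, H3K27ac or BORIS (a testis-type paralog of CTCF) and sequenced beside an input, with 2 samples per line and antibody, 16 in all. Whether samples of a kind came from separate cultures is not stated, and each pair of samples shares 1 peak list. No value here therefore has a replicate error, no p-value was computed, and the exact (Clopper-Pearson) 95% intervals cover counting error only. The read depth is unknown from peak lists, and since genes of the files' build were not at hand, the identity of the line was not checked against marker genes.

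SMC1 is a coiled-coil subunit of cohesin, the ring that holds sister chromatids together and extrudes chromatin loops. Extruding cohesin halts at bound CTCF, and cohesin is also found at active enhancers and promoters where its loader works. H3K27ac is an acetyl mark that CREBBP and its paralog place on nucleosomes flanking active promoters and enhancers, and it is called here as broad domains.

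Both lists span a wide range of strength. The SMC1 peaks had a median width of 236 bp (10th to 90th percentile 156 to 371 bp), a median fold enrichment over input of 6.48 and a −log10 q between 2.01 and 240.8. The H3K27ac domains had a median width of 1269 bp (320 to 3571 bp), with the widest at 71923 bp, a median fold of 3.53 and a −log10 q between 2.01 and 105.8. The folds and q values are the authors' own for each peak and were used only to rank and describe peaks within a list. Domains covered 65.4 Mb, which is 2.15% of the length of these chromosomes.

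The first comparison asked how often the marks were listed at the same place. About 1 in 4 SMC1 peaks lay in acetylated chromatin, on 2.15% of the sequence, while most domains held no SMC1 peak. Of the SMC1 peaks, 8472 of 32720 shared at least 1 bp with a domain (25.9%, interval 25.4 to 26.4%). Of the domains, 6936 of 36355 shared at least 1 bp with an SMC1 peak (19.1%, 18.7 to 19.5%). Per length of sequence, SMC1 summits stood at 11.6 per 100 kb inside domains and at 0.846 per 100 kb outside them. In most cases the contact was complete: 7340 SMC1 peaks lay wholly inside a domain, 7584 had their summit inside, and 888 touched a domain with the summit outside it. In TC-71 the corresponding shares were lower, at 13.6% of SMC1 peaks and 8.84% of domains, with 4.88 summits per 100 kb inside domains and 0.540 outside. The TC-71 lists are shorter, with 18264 peaks and 26334 domains, and a difference in depth or enrichment between the libraries cannot be told apart from one between the lines.

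SMC1 peaks in domains were weaker and wider than those outside. Their median fold was 4.85 in domains and 7.18 outside, their median −log10 q was 9.40 in domains and 20.4 outside, and their median width was 251 bp in domains and 233 bp outside. From the lowest to the highest rank decile by −log10 q, the share of SMC1 peaks in a domain was 57.0% (55.3 to 58.7%), 42.0%, 33.3%, 27.4%, 19.6%, 18.1%, 15.9%, 14.9%, 14.6% and 16.2% (14.9 to 17.5%). The share differed most between the lowest deciles and little between the highest. Among the 1000 highest SMC1 peaks it was 18.0% (15.7 to 20.5%), and among the 100 highest 24.0% (16.0 to 33.6%). In TC-71, by rank quartile from lowest to highest, the shares were 18.8%, 11.8%, 12.1% and 11.7%, so that the lowest and highest quartile stood closer there. In TC-32 the quartiles stood at 47.0%, 24.7%, 16.6% and 15.3%. With −log10 q at 5 or above in both lists, the highest TC-32 SMC1 quartile was below the lowest by 19.7 percentage points (coded −19.7 as highest minus lowest), against 31.7 points (−31.7) for all peaks.

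**Figure D1:**
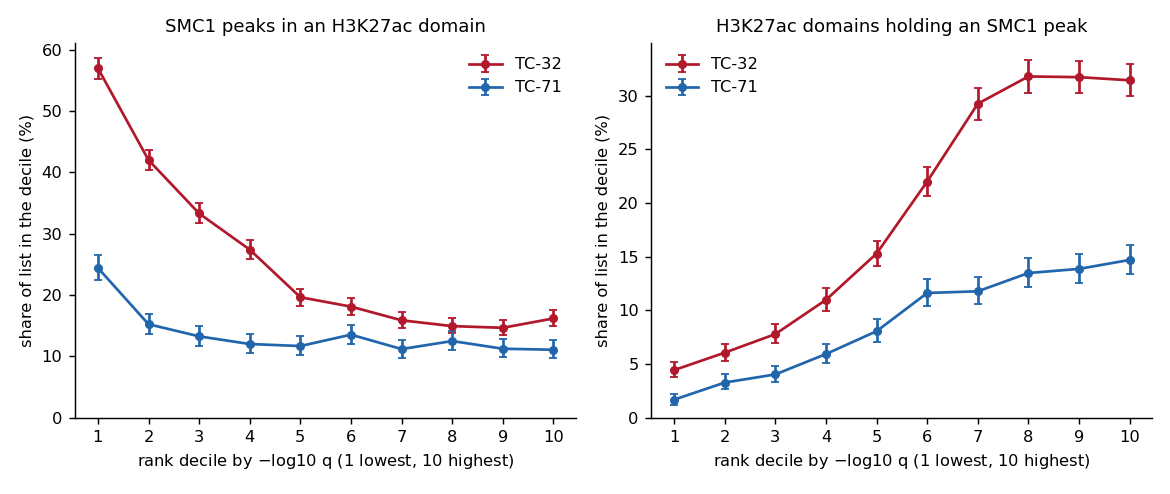
Share of SMC1 peaks lying in an H3K27ac domain (left) and share of H3K27ac domains holding an SMC1 peak (right), in percent, by rank decile of −log10 q within each list, for TC-32 (red) and TC-71 (blue); bars are exact 95% intervals for counting error. In TC-32 the SMC1 share is 57.0% in the lowest decile and 16.2% in the highest, while the domain share is 4.43% in the lowest and 31.4% in the highest.

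Width separated SMC1 peaks of equal rank. In the lowest rank quartile the share in a domain was 36.2% (34.8 to 37.6%) for the narrowest width quartile (138 to 187 bp), 50.5% and 64.4% for the next, and 76.7% (73.8 to 79.5%) for the widest (298 to 1895 bp). In rank quartile 2 the same widths gave 12.8%, 18.0%, 32.7% and 66.9%, and in rank quartile 3 they gave 9.65%, 9.51%, 13.1% and 38.4%. In the highest rank quartile the width quartiles 2 to 4 gave 6.62%, 10.02% and 19.9% (18.8 to 21.1%). Wide and low-ranked peaks thus had the highest share in domains, and high-ranked peaks of width quartile 2 the lowest. Peaks listed with several summits followed the same division. They made up 12.3% (11.6 to 13.0%) of SMC1 peaks in domains and 1.26% (1.13 to 1.41%) of those outside, and by rank quartile 9.62%, 14.8%, 16.0% and 12.2% in domains against 2.19%, 1.01%, 0.952% and 1.21% outside. In TC-71 they were 3.74% in domains and 0.564% outside.

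**Figure D2:**
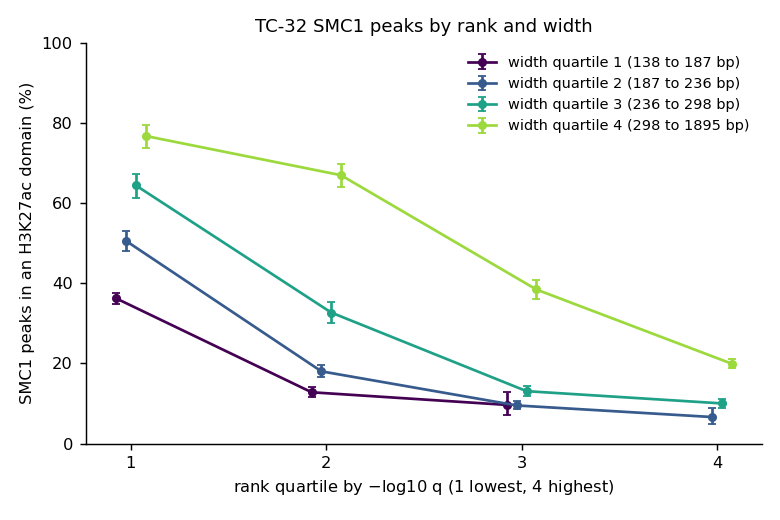
Share of TC-32 SMC1 peaks lying in an H3K27ac domain, in percent, by rank quartile of −log10 q (horizontal) and by width quartile (colour); bars are exact 95% intervals for counting error, and classes of fewer than 20 peaks are not drawn. At each rank the widest peaks have the highest share, from 76.7% in the lowest rank quartile to 19.9% in the highest.

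Looked at from the domains, the order by rank was the opposite, and high-ranked domains held SMC1 most often. Width went the same way as for SMC1 peaks, with the highest share in wide domains. Domains holding SMC1 had a median width of 2145 bp and those without 1111 bp, and a median fold of 4.45 with SMC1 and 3.38 without. From the lowest to the highest rank decile the share holding SMC1 was 4.43% (3.78 to 5.15%), 6.05%, 7.78%, 10.98%, 15.3%, 22.01%, 29.3%, 31.8%, 31.7% and 31.4% (29.9 to 33.0%), close to level over the highest 3 deciles. By width the share was 5.39% of domains under 0.5 kb, 10.6% at 0.5 to 1 kb, 17.7% at 1 to 2 kb, 28.7% at 2 to 4 kb, 49.05% at 4 to 8 kb and 73.1% (69.6 to 76.5%) of the 666 domains of 8 kb and over. A wider domain offers more sequence, and per 100 kb of domain the number of SMC1 summits was nearly level, at 9.88, 11.8, 11.9, 13.1 and 11.7 from the 0.5 to 1 kb class upwards, with 2.73 in the class under 0.5 kb. Density differed by rank within a width class as well: in domains of 2 to 4 kb there were 5.38, 8.36, 13.4 and 12.7 summits per 100 kb from the lowest to the highest rank quartile, and in those of 0.5 to 1 kb 6.19, 9.30, 15.7 and 19.1. In TC-71 the domains of 2 to 4 kb did not show this order, with 5.63, 5.08, 5.75 and 4.77 summits per 100 kb. Those of 0.5 to 1 kb had 4.10, 4.72, 7.02 and 7.65. In TC-32 the highest domain quartile exceeded the lowest by 26.2 percentage points over all domains. The difference was 12.4 points on average within width quartiles and 11.5 points with −log10 q at 5 or above in both lists.

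**Figure D3:**
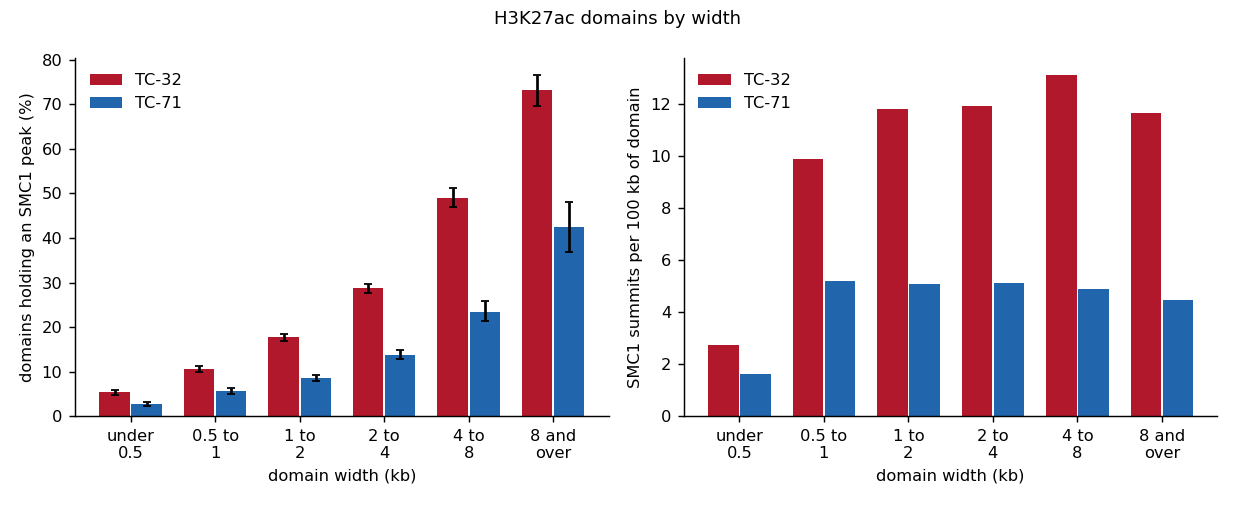
H3K27ac domains by width class in kb, for TC-32 (red) and TC-71 (blue): share holding at least 1 SMC1 peak, in percent with exact 95% intervals (left), and SMC1 summits per 100 kb of domain sequence (right). The TC-32 share grows from 5.39% under 0.5 kb to 73.1% at 8 kb and over, while the density stays between 9.88 and 13.1 summits per 100 kb in all classes but the narrowest.

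Most domains with cohesin held a single SMC1 peak. There were 5811 domains with 1 peak, 859 with 2, 176 with 3 and, at the top, 3 with 8. The 1125 domains with at least 2 peaks held 31.4% (30.4 to 32.4%) of the SMC1 peaks in domains. In TC-71 139 domains held at least 2 peaks, with 11.9% (10.7 to 13.3%) of those in domains. Neighbouring summits within a TC-32 domain had a median spacing of 922 bp (quartiles 501 and 1912 bp) over 1438 pairs, a distance that the width of the domain limits.

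The domains with most SMC1 summits were between 6987 and 10214 bp wide. At 3q29 (chromosome 3, 193851547 to 193860628, hg19), the band of HES1, a repressor in the Notch pathway, a domain of 9082 bp held 8 SMC1 summits with folds between 3.79 and 7.96. At 8p11.23 (chromosome 8, 37552009 to 37561599), the band of the zinc-finger gene ZNF703, 8 summits had folds between 3.08 and 9.15. At 5q15 (chromosome 5, 92913810 to 92922185), the band of the nuclear receptor gene NR2F1, 1 of 8 summits had a fold of 22.6 and the other 7 had folds between 2.65 and 4.91. That tall peak was the one of the 8 that was also listed in TC-71. The next domains, with 7 summits each, lay at 9q21.33 (chromosome 9, 89557254 to 89564240), the band of GAS1, a growth arrest gene, and at 4q28.3 (chromosome 4, 134067739 to 134077952), the band of the protocadherin gene PCDH10. At 9q21.33 the summit with the highest coordinate of the 7 had a fold of 11.01 and was the one shared with TC-71 peaks. None of the 7 at 4q28.3 was listed in TC-71. All 5 domains overlapped a TC-71 H3K27ac domain. The share of all TC-32 domains that do so is not given here, so the count is not read as particular to them. Genes are named with a band as background, and overlap with them was not tested.

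The highest-ranked domains differed in SMC1. The highest-ranked domain, at 1q42.12 (chromosome 1, 226248951 to 226252022, fold 10.6), held no SMC1 peak, and its nearest SMC1 summit was 669 bp away. The next, at 6p21.32 (chromosome 6, 32935257 to 32940977, fold 12.8), the band of the bromodomain gene BRD2, held 2 summits with folds of 3.43 and 2.58. At 9q22.33 (chromosome 9, 100744687 to 100747916, fold 14.9) 1 summit had a fold of 4.49, and at 6q25.2 (chromosome 6, 155053948 to 155055992, fold 14.7) 1 summit had a fold of 14.0. At 6p21.1 (chromosome 6, 42748535 to 42753604, fold 14.4) the nearest summit was 54031 bp away. Wide domains could also lack cohesin: the widest without an SMC1 peak were at 1p36.11 (chromosome 1, 25663206 to 25689000, 25.8 kb), 7q34 (chromosome 7, 141041012 to 141066744, 25.7 kb), 3p14.3 (chromosome 3, 58214656 to 58239641, 24.99 kb), 10q22.1 (chromosome 10, 72988349 to 73010955, 22.6 kb) and 19q13.2 (chromosome 19, 39137502 to 39158944, 21.4 kb). All 5 were acetylated in TC-71 as well, and no TC-71 SMC1 peak lay in them. The nearest TC-32 SMC1 summit was between 9225 and 78916 bp away. Without the share of all TC-32 domains that overlap a TC-71 domain, the shared acetylation is not read as a trait of these 5. The 20 widest domains of the list all held SMC1 (20 of 20, exact interval 83.2 to 100%).

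The next question was where in a domain SMC1 lies. Summits gathered in the middle and were scarce near the ends. Of the 7584 summits inside domains, 593 were within 250 bp of an end (7.82%, 7.22 to 8.45%), although 25.9% of domain sequence lies that near to an end. The central 20% of domain length held 32.1% (31.1 to 33.2%) and the outer 10% at both ends together 6.08% (5.55 to 6.64%), where an even spread would give 20% each. The shortage at the ends was seen in every width class from 0.5 kb up. Within 250 bp of an end lay 42.4% of summits against 66.8% of sequence at 0.5 to 1 kb, 9.64% against 34.4% at 1 to 2 kb, 3.25% against 18.4% at 2 to 4 kb, 0.941% against 9.31% at 4 to 8 kb, and 0.811% against 3.94% at 8 kb and over. The preference for the centre was less marked in wide domains, with 37.8%, 34.5%, 32.7%, 30.9% and 24.3% of summits in the central 20% over the same classes.

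SMC1 density did not change evenly across a domain's end. It was 15.2 summits per 100 kb at 2000 bp or more inside, 16.1 at 1 to 2 kb, 15.1 at 500 to 1000 bp, 11.6 at 250 to 500 bp, 4.28 at 100 to 250 bp and 2.45 in the last 100 bp. Just beyond the end it was higher again, at 8.65 per 100 kb in the first 100 bp outside and 8.35 at 100 to 250 bp. Farther out it was 3.82 at 250 to 500 bp, 1.46 at 500 to 1000 bp and 1.19 at 1 to 2 kb. The band of 1 to 250 bp outside held 1540 summits, and the band of under 250 bp inside held 593. TC-71 also had the dip at the end, with 0.991 summits per 100 kb in the last 100 bp inside and 6.82 in the first 100 bp outside. The levels on either side differed from TC-32. In TC-71 the first 100 bp outside was the densest of these zones, and those at 250 bp or more inside had 5.58 to 6.38 per 100 kb. In bins of 100 bp, TC-71 reached 7.37 at 100 to 200 bp outside and 6.59 at 300 to 400 bp inside. In TC-32 the zones at 250 bp or more inside were denser than any outside. The settings that placed the domain ends are not stated in the labels.

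**Figure D4:**
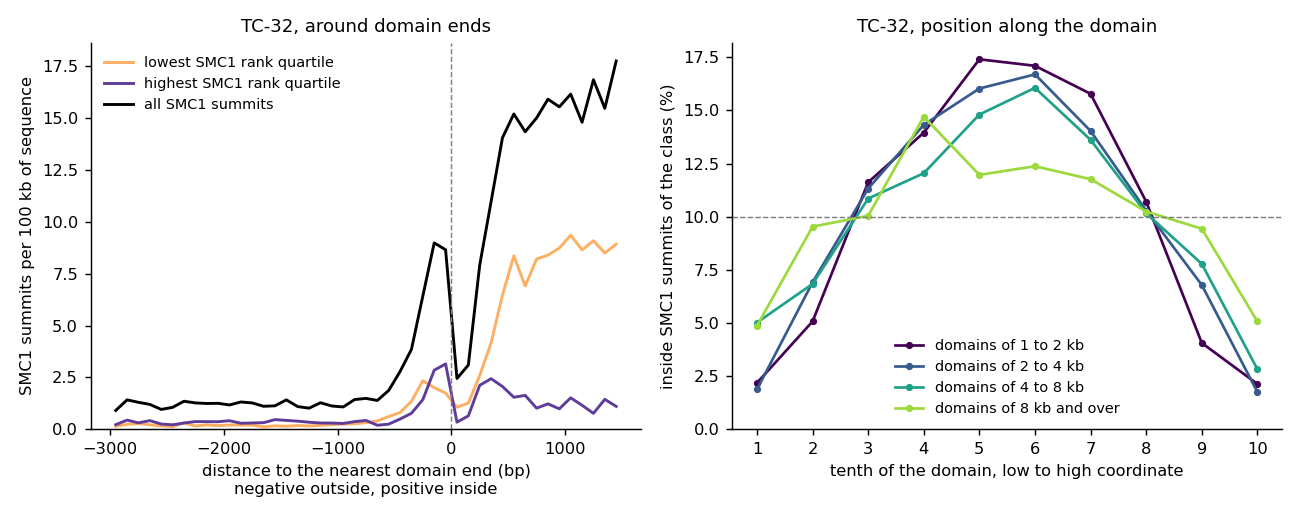
Left, TC-32 SMC1 summits per 100 kb of sequence against the distance to the nearest H3K27ac domain end in bp (negative outside, positive inside, bins of 100 bp), for all summits and for the lowest and highest SMC1 rank quartile. Right, percent of inside summits in each of 10 equal parts of the domain for 4 width classes, with the dashed line at an even 10%; inside domains density is lowest next to the end, at 2.45 per 100 kb, and the central parts exceed the outermost ones.

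Tall and weak SMC1 peaks divided between these positions. At 2000 bp or more inside a domain 6.87% (5.58 to 8.35%) of summits were of the highest SMC1 rank quartile and 49.4% of the lowest. In the first 100 bp outside, 36.4% (32.6 to 40.3%) were of the highest quartile and 20.2% of the lowest, and over 2000 bp outside 29.4% and 16.7%. Between these zones the order was not constant. The highest and lowest quartile made up 29.0% and 25.5% at 100 to 250 bp outside and 20.1% and 34.8% at 250 to 500 bp. They made up 20.8% and 25.6% at 500 to 1000 bp and 29.8% and 15.1% at 1 to 2 kb. By density, the lowest quartile had 7.23 summits per 100 kb in domain interiors (250 bp or more from both ends) and 0.128 at over 2000 bp outside, a ratio of 56.7. Quartile 2 had 3.63 and 0.194 (ratio 18.7), quartile 3 had 2.07 and 0.218 (9.47), and the highest had 1.51 and 0.224 (6.71). All quartiles were thus denser inside domains, the weak peaks far more so. At 1 to 250 bp outside, the highest quartile had 2.71 summits per 100 kb, 1.80 times its interior density, and that ratio was 0.273, 0.468 and 1.01 in quartiles 1 to 3. Among inside summits, 5.99% (5.25 to 6.80%) of the lowest quartile and 15.1% (12.8 to 17.7%) of the highest lay within 250 bp of an end. The intermediate quartiles had 6.78% and 10.1%. Their domains differed in width, with a median of 2794 bp for the lowest quartile and 2150 bp for the highest. In domains of 2 kb and over the shares were 1.66%, 1.62%, 3.26% and 3.29% (1.85 to 5.37%), from the lowest quartile to the highest. In TC-71 the interior to outside ratio was 20.4, 10.5, 10.03 and 8.05 from the lowest to the highest quartile.

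Presence in TC-71 followed position as well. Of TC-32 SMC1 peaks with a summit 2000 bp or more inside a domain, 16.9% (15.0 to 19.0%) overlapped a TC-71 SMC1 peak. The share was 17.6% at 1 to 2 kb, 22.96% at 500 to 1000 bp, 39.5% at 250 to 500 bp and 45.1% at 100 to 250 bp from an end. It was 33.1% (26.3 to 40.6%) in the last 100 bp inside, 63.9% (60.0 to 67.7%) in the first 100 bp outside and 58.6% (57.9 to 59.3%) beyond 2000 bp. Between these outside zones it was 52.8% at 100 to 250 bp and 39.8% (36.1 to 43.6%) at 250 to 500 bp, near the value at 250 to 500 bp inside. It was 53.2% at 500 to 1000 bp and 56.3% at 1 to 2 kb outside. Rank differed between these zones too. Peaks of the highest SMC1 quartile made up 7.90% at 1 to 2 kb, 8.77% at 500 to 1000 bp, 19.3% at 250 to 500 bp, 25.3% at 100 to 250 bp and 14.0% in the last 100 bp inside, and the part of rank in the shares was not tested. TC-71 acetylation at the same peaks was listed for 72.0% of those 2000 bp or more inside, 56.7% in the last 100 bp inside, 46.9% in the first 100 bp outside, 26.1% at 100 to 250 bp and 2.54% beyond 2000 bp. Peaks with a summit just outside a TC-32 domain thus shared at least 1 bp with a TC-71 domain more often than those far from one. Position was set by the summit and overlap by the whole peak. The 888 peaks that touch a TC-32 domain with the summit outside count as outside here, and their part in this contrast was not tested.

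The highest SMC1 peaks in domains were placed in several ways. At 2q34 (chromosome 2, 210288316 to 210288899, fold 35.0) the summit was 429 bp from the end of a domain of 1120 bp, and at 3q21.3 (chromosome 3, 126108057 to 126108502, fold 38.7) 368 bp from the end of one of 786 bp. At 12q12 (chromosome 12, 39300379 to 39300845, fold 36.9) it was 325 bp from the end of a domain of 2499 bp. At 8q21.3 (chromosome 8, 90996287 to 90997135, fold 24.8), an SMC1 peak of 849 bp, it was 39 bp from the end of a domain of 3121 bp. The summit at 5q31.3 (chromosome 5, 140940326 to 140940854, fold 20.5) was the farthest of the 5 from an end, at 1403 bp in a domain of 3079 bp. The domains had folds between 4.60 and 5.93. All 5 SMC1 peaks were listed in TC-71, and those at 5q31.3 and 8q21.3 lay in TC-71 domains. Over all TC-32 peaks with the summit inside a domain, 25.3% were listed in TC-71 and 60.4% overlapped a TC-71 domain.

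The last comparison asked how far the remaining SMC1 summits stood from acetylation. They include the 888 summits whose peak touches a domain, counted above among the SMC1 peaks in domains. What part of the near summits these make up was not counted. Of 25136 summits outside domains, 2226 were within 500 bp of one (8.86%, 8.51 to 9.21%), on 1.22% of the outside sequence, and 5245 within 5 kb (20.9%, 20.4 to 21.4%), on 9.65%. Within 50 kb lay 65.4% (64.8 to 66.0%), on 45.5%. The median distance was 26230 bp for summits and 61928 bp for outside sequence, which includes centromeres and assembly gaps. Beyond the first 1000 bp the density was close to level, at 1.16 per 100 kb at 2 to 5 kb, 1.10 at 5 to 10 kb, 1.08 at 10 to 20 kb and 1.02 at 20 to 50 kb. It was lower at longer range, with 0.864 at 50 to 100 kb, 0.686 at 100 to 200 kb, 0.473 at 200 to 500 kb and 0.117 beyond. At −log10 q of 5 or above in both lists, 13.3% of outside summits were within 5 kb, on 6.38% of outside sequence. In TC-71 17.2% were within 5 kb, on 6.96%, and the median distance was 34862 bp.

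**Figure D5:**
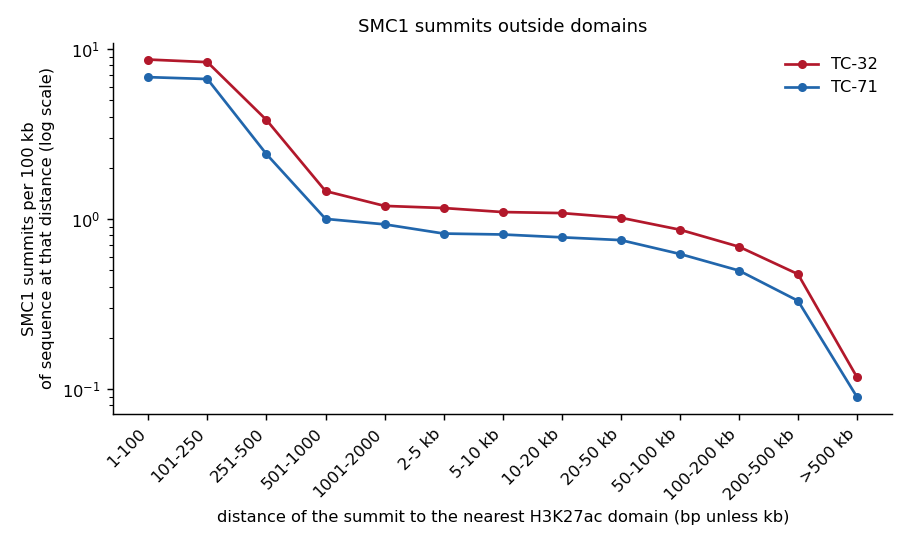
SMC1 summits outside H3K27ac domains per 100 kb of the sequence found at each distance from the nearest domain (logarithmic vertical axis), for TC-32 (red) and TC-71 (blue). In TC-32 the density is 8.65 per 100 kb in the first 100 bp, 1.16 at 2 to 5 kb and 0.117 beyond 500 kb, and TC-71 follows the same course at a lower level.

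Outside domains the median distance differed little with rank, but the shares very near and very far did. The median by SMC1 rank quartile, lowest to highest, was 25555, 27937, 27620 and 24446 bp. Within 500 bp lay 13.4% (12.4 to 14.5%) of the outside summits of the lowest quartile, and 7.41%, 7.51% and 8.62% (7.99 to 9.29%) of the others. Summits over 200 kb from any domain were 10.3%, 10.6%, 9.58% and 7.49% of the quartiles. Few outside summits lay in a short gap between domains. Of 2707 within 1000 bp of a domain, 157 had another within 1000 bp on the far side (5.80%, 4.95 to 6.75%). The share of the sequence within 1000 bp was 4.53%, which takes no account of the higher density close to domain ends. In TC-71 the summit share was 6.02% (4.84 to 7.38%), against 4.87% of sequence. The shortest gap in the list was 773 bp, and 103 of the 1658 gaps of up to 1000 bp held an SMC1 summit (6.21%, 5.10 to 7.48%). These short gaps were the densest, at 7.35 summits per 100 kb, against 2.85 in gaps of 1 to 2 kb and 0.721 in gaps over 100 kb. All sequence in gaps of up to 1000 bp lies within 500 bp of a domain, so gap length was not separated from nearness to an end.

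The 5 SMC1 peaks ranked highest by −log10 q all lay outside domains. The first, at 5q35.2 (chromosome 5, 174961069 to 174961501), had a fold of 28.4 and stood 39575 bp from the nearest domain. At 8q21.13 (chromosome 8, 81152841 to 81153241) a peak with a fold of 25.4 stood 68855 bp away, and at 14q11.2 (chromosome 14, 23589973 to 23590425) one with a fold of 31.8 stood 19580 bp away. The peak at 1p31.3 (chromosome 1, 66708338 to 66708722) had a fold of 32.5 and was the nearest to a domain, at 2942 bp. At 15q25.1 (chromosome 15, 78400618 to 78401077) the fold was 30.5 and the distance 21903 bp. All 5 were SMC1 peaks in TC-71, and none lay in a TC-71 H3K27ac domain. Over all TC-32 peaks with the summit outside domains, these shares were 57.8% listed in TC-71 and 5.07% overlapping a TC-71 domain. The summits farthest from a domain lay in bands near centromeres: 3 at 21p11.2 and 21p11.1 between 4342165 and 5809390 bp away, 1 at 16p11.1 (2739656 bp) and 1 at 15q11.1 (2270942 bp). Their folds were between 2.93 and 8.51. The peak at 16p11.1 (chromosome 16, 34625858 to 34626049) and the farthest one at 21p11.2 (chromosome 21, 9590223 to 9590413) carry the same fold of 8.51 and −log10 q of 18.1.

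Of the 29419 domains without SMC1, 5343 had an SMC1 summit within 5 kb (18.2%, 17.7 to 18.6%), the median distance was 19522 bp, and 5.55% stood over 100 kb away. Near summits were less frequent for high-ranked domains, at 20.8%, 19.8%, 16.8% and 13.9% (13.1 to 14.8%) from the lowest to the highest domain quartile. In TC-71 13.0% of the domains without SMC1 had a summit within 5 kb, and the median distance was 31412 bp.

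The meeting of the marks varied between chromosomes. The share of SMC1 peaks in domains was highest on chromosome 8, at 30.4% of 1850, and lowest on chromosome X, at 17.5% of 937. The share of domains holding SMC1 had the same extremes, at 25.1% on chromosome 8 and 13.4% on X. Domains covered 2.25% of chromosome 8 and 1.02% of X. On chromosome 8 summits stood at 16.2 per 100 kb inside domains and 0.922 outside, and on X at 9.68 and 0.509. The gene-rich chromosome 19 had the most peaks and domains per Mb, 16.3 and 24.7, yet its domains held few summits, 7.12 per 100 kb of domain, close to the 7.02 of chromosome 22 and below the 16.2 of chromosome 8. In TC-71 the share of SMC1 peaks in domains was again highest on chromosome 8, at 18.7%, but lowest on chromosome 10, at 9.83%, with 11.4% on X. Copy number was not analysed here. Across cytogenetic bands, pale gene-rich bands (gneg) carried 13.1 SMC1 peaks and 15.5 domains per Mb, and the darkest bands (gpos100) 8.02 and 7.36. The domains of the darkest bands held SMC1 more often, at 25.02% (23.6 to 26.5%), than those of pale bands, at 17.9% (17.4 to 18.5%). TC-71 did not share this order, with 8.49% (7.47 to 9.59%) in the darkest bands and 9.25% (8.78 to 9.74%) in pale ones.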

How the data were processed

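For each line and antibody 1 peak list was analysed, which the labels give to both samples of that kind; its peak names state that the line's own input was the control. Tools in the submitters' processing notes, listed there without their part in the work, are MACS2 2.1.1, STAR 2.5.1b, deepTools 2.2.4, Picard and SAMtools 1.3.1, on build hg19. Caller settings and the way samples were joined: not given in the sources used here. Each deposited list gives a score, a fold enrichment, a −log10 p and −log10 q, and for SMC1 a summit position, as the authors made them; the score and −log10 p were not used.

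SMC1 intervals with several summits were counted once, at the summit with the highest −log10 q (34320 listed summits, 32720 intervals). The 2 domains outside chromosomes 1 to 22 and X were left out. Overlap meant at least 1 bp; ranks follow −log10 q. Expected shares are sequence counts over domains and hg19 chromosomes (bands from circlize 0.4.16), not random placement. Coordinates count from 1. BORIS lists were only counted. Peaks were named by rule: the 5 domains with most SMC1 summits, the 5 highest, the 5 widest without SMC1, and the 5 SMC1 peaks highest in domains, highest outside and farthest away. Members and rules were chosen with earlier results of these data known. Genes, promoters, marker lists and sequences were not analysed here, since the gene tables at hand follow GRCh38.p14. Computation used scipy 1.17.1, pandas 2.3.3, numpy 2.4.6 and Python 3.11.15, and drawing matplotlib 3.10.9. Positions of 3000 summits planted in simulated lists were recovered with 0 errors. They lay inside domains or less than 500 bp past the high-coordinate end, and longer distances were not planted.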

Additional observations from a re-analysis of the deposited data

How the results depend on the processing

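No paired analysis was possible because both samples of a kind share 1 list without separate columns, which also prevented leaving out a replicate. Among 30 recomputed values, 23 moved beyond the interval of the main value and 7 did not. Only the rank differences, not the shares, could change sign, and 0 of them did. For SMC1 peaks in domains and domains holding SMC1, the shares were 19.1% and 22.1% with a −log10 q of at least 5, 23.2% and 16.9% with the summit inside, 23.4% and 17.0% with 50% of the SMC1 peak covered, and 30.0% and 22.3% with the summit within 500 bp; every listed summit gave 17.0% of domains, and domains merged within 1 kb 20.1%. The SMC1 rank difference (highest minus lowest quartile, percentage points) was −34.3 ranked by fold, −19.7 with a −log10 q of at least 5, −35.0 with the summit inside and −42.2 within width quartiles. That of domains was 24.4 by fold, 11.5 with a −log10 q of at least 5 and 12.4 within width quartiles. Summits near an end were 2.35% within 100 bp (11.1% of sequence), 27.5% within 500 bp (45.6%) and 6.36% within 250 bp with a −log10 q of at least 5 (19.9%). Outside summits near a domain were 13.3% within 5 kb with a −log10 q of at least 5, 10.8% within 1 kb and 65.4% within 50 kb. Wider zones and stricter thresholds change these by construction. Depth per sample is unknown.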
